A study of Drosophila melanogaster with 12 samples.

Results

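PM3 is 1 of the numbered clusters of larval *Drosophila* plasmatocytes in the study, and is described here with *Mmp1*, a matrix metalloproteinase gene, as its marker. Its members were the cells to which the authors' deposited clustering gave the number that the study's own cluster table pairs with PM3. There were 1810 PM3 cells among 19458 hemocytes of 11 libraries, or 9.30% of all cells and 11.1% of 16356 plasmatocytes, and PM3 ranked 3 by size among 12 plasmatocyte clusters. Of these cells 315 came from unwounded, 764 from wounded and 731 from wasp inf. 24 hr larvae. The clusters were found from the expression of these same cells after a batch correction over all conditions. Differences between PM3 and other plasmatocytes are therefore described without a test, and tests were run only between conditions. Some of these tests compare the gap between PM3 and other plasmatocytes across conditions. That gap rests on the same clustering, whose part in such a difference was not tested.

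The unwounded and the wounded group each had 4 libraries of *Hml > EGFP* larvae, whose *Hml* driver marks plasmatocytes. In both groups 10X Chromium was used for replicates 1 and 2 and inDrops for replicates 3 and 4, after purification on a density gradient. A needle was used for wounding at 96 hr after the eggs were laid (AEL), and hemocytes were taken 24 hr after that, also from the unwounded larvae. The wasp inf. 24 hr group had 3 Drop-seq libraries, made without the gradient. Its larvae were of the wild type *OreR*, were exposed to the parasitoid *Leptopilina boulardi* at 72 hr AEL, and gave hemocytes at 96 hr AEL. Each library pooled the hemocytes of many larvae. Condition, technology, strain, age and isolation cannot be told apart in any comparison with wasp inf. 24 hr.

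Plasmatocytes are the macrophage-like cells of the fly. They engulf bacteria and dying cells through Nimrod and scavenger receptors, lay down basement membrane and secrete clotting factors and antimicrobial peptides (AMPs). *Mmp1* encodes an enzyme that cleaves basement membrane and other extracellular matrix, and in fly tissues it is a known target of Jun N-terminal kinase (JNK) signaling and its transcription factor AP-1, which is formed by Jra and kay. JNK signaling is activated in many fly tissues by wounding, while the Toll and Imd pathways control most AMP genes.

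Each library entered with at least 10 PM3 cells. This left 3 unwounded, 4 wounded and 2 wasp inf. 24 hr libraries, with between 155117 and 4160751 unique molecular identifiers (UMIs) summed over PM3 cells. The median PM3 cell had 2869.5 UMIs in unwounded replicate 1 and 2445 UMIs in wounded replicate 1, against 993 and 1755 UMIs in the median other plasmatocyte of these libraries. In unwounded and wounded replicate 2 PM3 was the lower, at 3786.5 and 2943 UMIs against 4189 and 3522.5 UMIs. In unwounded replicate 3 and wounded replicates 3 and 4 the classes were close, at 2752, 2778 and 2261 UMIs against 2737, 2740 and 2280 UMIs. PM3 carried the plasmatocyte identity that its name gives it. The summed level of 8 plasmatocyte markers was 17619 to 27434 CPM (UMIs of a gene in every 1000000 UMIs of the sum) in unwounded PM3 cells and 17746 to 23880 CPM in other unwounded plasmatocytes. In the wasp inf. 24 hr libraries, where *Col4a1* was at 0, it was 5225 and 5272 CPM in PM3 and 2630 and 3749 CPM in the others. Crystal cell markers summed to 147 to 251 CPM in unwounded PM3 cells, where *lz*, the factor that sets crystal cell fate, was at 0. Of 7 lamellocyte markers, *atilla*, *ItgaPS4*, *Drip* and *Tret1-1* were at 0 there. The 7 still summed to 68.1 to 118 CPM, against 49.2 to 111 CPM in other unwounded plasmatocytes. Over all conditions this sum was higher in PM3 in 8 of 9 libraries. A total of 306 cells, 30 of them in PM3, carried a barcode that occurs in more than 1 library.

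PM3 was present in every condition, but its share of plasmatocytes varied more between libraries of one condition than between conditions. It was 8.11%, 9.99%, 10.5% and 0.223% in unwounded replicates 1 to 4. In wounded replicates 1 to 4 it was 10.8%, 7.93%, 19.01% and 6.17%. In wasp inf. 24 hr replicates 1 to 3 it was 1.28%, 41.3% and 2.28%. Wounded replicate 3 had the highest share of the wounded libraries and unwounded replicate 4, with 1 PM3 cell among 448 plasmatocytes, the lowest of all, and the groups overlapped.

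**Figure D1:**
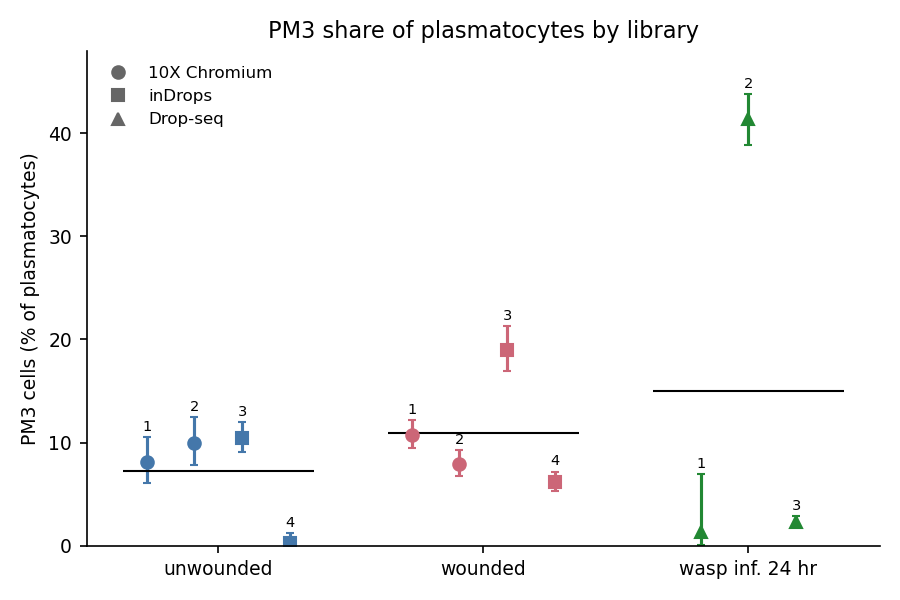
Share of PM3 cells among plasmatocytes (percent, vertical axis) in each library, numbered by replicate, with 95% Clopper-Pearson intervals as bars and group means as lines. Wasp inf. 24 hr replicate 2, at 41.3%, stands above the other libraries, and the unwounded and wounded libraries overlap.

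The mean share was 7.20% ± 4.76 (SD, n = 4) in unwounded and 10.97% ± 5.68 (SD, n = 4) in wounded libraries. The difference of 3.77 percentage points did not pass a two-sided exact permutation test (p = 0.429, where the smallest p that 4 against 4 allows is 0.0286), and it was 1.45 points without unwounded replicate 4 and 1.09 points without wounded replicate 3. By technology, the means were 9.05% and 9.35% with 10X Chromium and 5.35% and 12.6% with inDrops, unwounded first. With replicates paired by number, 3 of 4 pairs had the higher share after wounding (exact sign-flip permutation test, p = 0.25, smallest possible 0.125). Wasp inf. 24 hr replicate 2 alone held 89.2% of the PM3 cells of its condition and 36.0% of all PM3 cells. The wasp inf. 24 hr mean of 14.97% ± 22.8 (SD, n = 3) was thus set by 1 library, and any value over pooled wasp inf. 24 hr cells is mostly a value of that library. In unwounded replicate 4, 96.4% of plasmatocytes were in PM1, against 15.7% to 78.5% in the other unwounded libraries. Its other plasmatocytes had a median of 1127 UMIs and 491 genes, against 2280 UMIs and 863 genes in wounded replicate 4. Unwounded replicate 1, with a share of 8.11%, was as shallow, at 993 UMIs and 490 genes. Per the study's methods, an inDrops library numbered 4, unwounded or wounded, was filtered at a higher number of genes per cell. The part of depth and filtering in the share was not tested.

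*Mmp1* (FBgn0035049) is a gene of the minus strand of chromosome arm 2R (24671294 to 24688184, BDGP6.54 assembly). The *Mmp1* level in PM3 was 77.4, 108 and 105 CPM in unwounded replicates 1 to 3. It was 166, 193, 178 and 82.1 CPM in wounded replicates 1 to 4, and 2551 and 589 CPM in the wasp libraries 2 and 3. PM3 was above the other plasmatocytes of its own library in 9 of 9 libraries. The other plasmatocytes had 36.9 to 40.2 CPM in unwounded, 46.3 to 78.3 CPM in wounded and 1254 and 272 CPM in the wasp inf. 24 hr libraries, so that both wasp libraries were above every PM3 value of the other conditions.

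The log2 ratio of PM3 over other plasmatocytes, with 5 CPM added to each level, had a median of 1.10 and ranged from 0.71 to 1.94. PM3 was the plasmatocyte cluster with the highest *Mmp1* in 7 of 9 libraries. PM5 was higher in wounded replicate 1 (226 CPM), and in wounded replicate 4 PM5 (99.95 CPM) and PM6 (136 CPM) were higher. Against single clusters, the median log2 ratio was 1.87 over PM4 (higher in 8 of 8 libraries), 1.53 over PM2 (9 of 9), 1.34 over PM1 (9 of 9) and 0.53 over PM7 (7 of 7). It was 0.45 over PM5 and 0.72 over PM6, where PM3 was higher in 7 of 9 and 3 of 4 libraries. *Mmp1* thus marked PM3 off from PM1, PM2 and PM4 more than from PM5, PM6 and PM7.

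**Figure D2:**
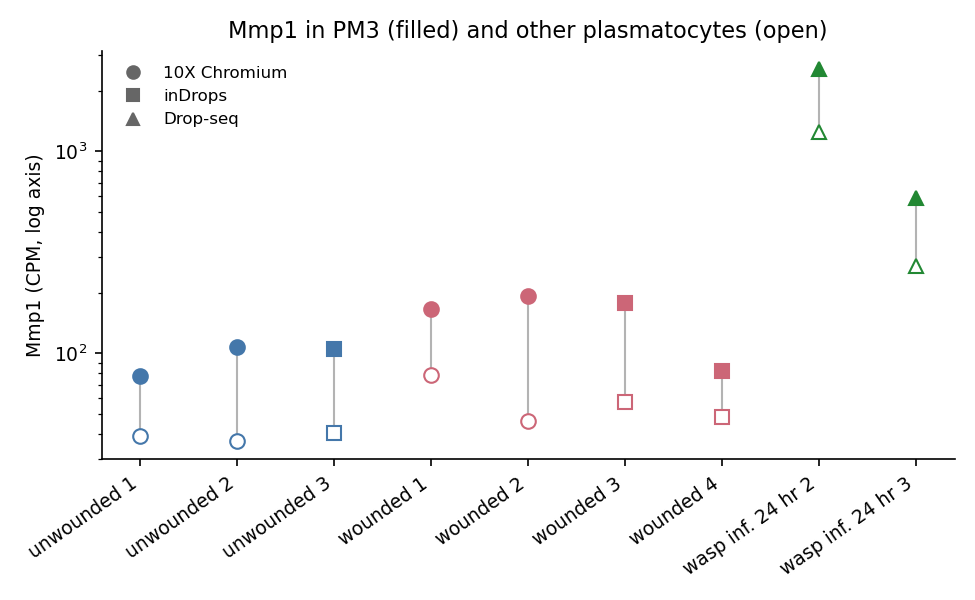
Level of *Mmp1* (CPM of summed UMIs, log axis) in PM3 cells (filled) and in the other plasmatocytes (open) of each library, with symbols for the technology. PM3 is the higher of each pair, and both wasp inf. 24 hr libraries lie above the rest in both classes.

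*Mmp1* was not detected in every PM3 cell. In unwounded replicates 1 to 3, 17.3%, 25.0% and 20.6% of PM3 cells had an *Mmp1* UMI. The share was 16.03% to 38.2% in wounded libraries, and 98.2% and 69.2% in wasp inf. 24 hr replicates 2 and 3. To compare cells at equal depth, each cell was thinned to 1000 UMIs, which left out 7 PM3 cells of unwounded replicate 1 and at most 1 of the other libraries. Thinned shares in PM3 were 4.44% to 11.8% in unwounded, 8.33% to 16.7% in wounded, and 82.5% and 46.2% in the wasp inf. 24 hr libraries. The 95% Clopper-Pearson interval was 79.4% to 85.4% in wasp inf. 24 hr replicate 2 and 34.8% to 57.8% in replicate 3.

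In the other plasmatocytes, thinned shares were 3.06% to 3.75% in unwounded replicates 1 to 3, 3.84% to 6.18% in wounded, and 57.0% and 22.2% in the wasp inf. 24 hr libraries. Thinned crystal cells, a separate hemocyte type that served as a gauge of free RNA, had an *Mmp1* UMI in 0% to 1.72% of cells in unwounded replicates 1 to 3 and 1.74% to 6.72% in wounded libraries. In the wasp inf. 24 hr libraries the crystal cell shares were 41.7% and 22.7%. PM3 was above both in every library, although its interval in unwounded replicate 1 (0.543% to 15.1%) took in both, and in wasp inf. 24 hr replicate 3 the other plasmatocytes were at the level of the crystal cells. Before thinning, crystal cells had a median of 4750.5 and 3903 UMIs in these wasp libraries, against 5892.5 and 3551.5 UMIs in PM3.

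Beside *Mmp1*, the genes that were higher in PM3 by the largest ratios included the AMP genes *Mtk* and *Drs* and the cytoskeletal regulator *trio*. The named genes had a median of at least 100 CPM in PM3 and were higher than in other plasmatocytes in all libraries but at most 1. Of 1150 genes at that level, 248 met this rule, and the 20 with the largest median log2 ratio are described here. They were *Mtk*, *trio*, *Glut4EF*, *Drs*, *Mmp1*, *CG43175*, *CG43236*, *CG33225*, *CG11686*, *Gadd45*, *alphaTub85E*, *NimC1*, *yellow-f*, *CG42674*, *Rel*, *Idgf1*, *CG13117*, *capu*, *Myo31DF* and *Diap1*. Their median log2 ratios fell from 1.20 to 0.64, and the next gene in order was at 0.58.

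*Mtk* encodes the antimicrobial peptide Metchnikowin. Its level in PM3 was 77.4, 377 and 138 CPM in unwounded replicates 1 to 3, 2167, 938, 5504 and 8594 CPM in wounded replicates 1 to 4, and 28.1 and 15.6 CPM in the wasp inf. 24 hr libraries. PM3 was above the other plasmatocytes in 9 of 9 libraries, with log2 ratios from 0.16 to 2.41. After thinning, 12.1% of crystal cells in unwounded replicate 1 and 73.9% in wounded replicate 3 had an *Mtk* UMI, against 4.44% and 73.2% of PM3 cells. In the other unwounded and wounded libraries that entered, the thinned share was higher in PM3. PM3 was not the cluster with the highest sum of AMP genes in any library, where it ranked 2 to 4. In the 4 wounded libraries PM7 had 30473 to 54408 CPM and PM3 had 2156 to 13224 CPM. *Drs*, the antifungal peptide Drosomycin, was higher in PM3 in 8 of 9 libraries. The exception was unwounded replicate 2, where *Drs* was at 7.17 CPM in PM3 and 9.38 CPM in the others, so both were near 0. *Rel*, the NF-kB factor of the Imd pathway, was higher in 9 of 9 libraries, with a median log2 ratio of 0.68 and 1055 and 857 CPM in the wasp libraries against 70.9 to 185 CPM in unwounded ones.

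*trio*, a guanine nucleotide exchange factor that activates Rac, was the leading cytoskeletal gene. Its level in PM3 was 213, 71.7 and 50.5 CPM in unwounded, 199.6, 157, 69.4 and 106 CPM in wounded, and 615 and 352 CPM in wasp inf. 24 hr libraries. The other plasmatocytes had 24.3 to 109 CPM in unwounded, 27.6 to 86.4 CPM in wounded, and 140.1 and 119 CPM in wasp inf. 24 hr libraries. PM3 was higher in 9 of 9 libraries (log2 ratios 0.31 to 2.09), and in 9 of 9 when set against PM5 alone. The formin *capu*, an actin nucleator, and *Myo31DF*, a class I myosin, had median log2 ratios of 0.64 each, but *Myo31DF* did not set PM3 apart from PM5 (higher in 5 of 9 libraries).

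*NimC1*, a phagocytosis receptor and a marker of plasmatocytes in general, was higher in PM3 in 9 of 9 libraries. Its level in PM3 was 213, 208 and 125 CPM in unwounded, 201, 186, 142 and 79.4 CPM in wounded, and 273 and 467 CPM in wasp inf. 24 hr libraries. In the other plasmatocytes it was 77.1 to 113 CPM in unwounded, 64.2 to 121 CPM in wounded, and 26.0 and 105 CPM in the wasp inf. 24 hr libraries. The gap was widest after wasp infestation, where the log2 ratios were 3.16 and 2.11. *Gadd45*, a stress-induced gene, *Diap1*, which inhibits caspases, and *Idgf1*, a secreted chitinase-like protein, were each higher in 9 of 9 libraries, with median log2 ratios of 0.84, 0.64 and 0.65.

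**Figure D3:**
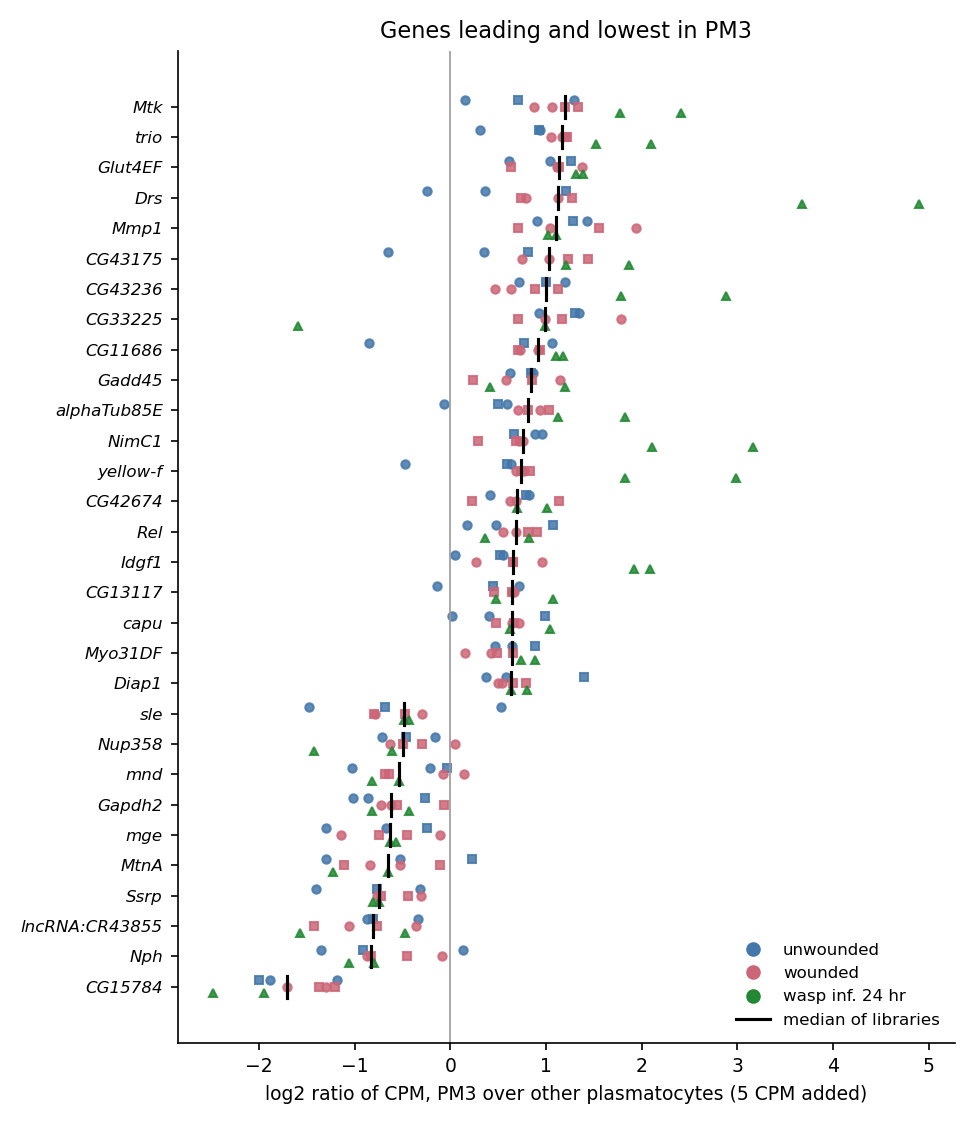
Log2 ratio of CPM in PM3 over other plasmatocytes (5 CPM added, horizontal axis) for the 20 leading and the 10 lowest genes, with 1 symbol per library (circle 10X Chromium, square inDrops, triangle Drop-seq) and a bar at the median. Most symbols of a gene lie on one side of 0, and *Drs* and *NimC1* are highest in the wasp inf. 24 hr libraries.

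By the mirrored rule, 142 of 1141 genes were lower in PM3. *CG15784* stood furthest below. Its level in PM3 was 45.1, 64.6 and 89.8 CPM in unwounded, 98.2, 45.6, 118 and 53.0 CPM in wounded, and 44.7 and 74.8 CPM in wasp inf. 24 hr libraries. The other plasmatocytes had 109 to 374 CPM, which was higher in 9 of 9 libraries (median log2 ratio −1.71). Much of this gap was to PM5 (median log2 ratio −4.50), while over PM4 the ratio was 0.70. The other genes of this kind were *Nph* (median log2 ratio −0.83), *lncRNA:CR43855* (−0.81), *Ssrp* (−0.75), *MtnA* (−0.66), *mge* (−0.63), *Gapdh2* (−0.62), *mnd* (−0.54), *Nup358* (−0.49) and *sle* (−0.49). Among these, *Ssrp* belongs to the histone chaperone complex FACT, *MtnA* is a metallothionein, *mge* is part of the mitochondrial import pore, *Gapdh2* is a glycolytic enzyme and *Nup358* belongs to the nuclear pore.

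By list, targets of JNK and AP-1 were mostly higher and cell division genes mostly lower in PM3. Over all 5947 genes with a mean of at least 10 CPM, 453 (7.62%) were higher and 647 lower in PM3 in all libraries but at most 1, and the median log2 ratio was −0.04. Of 8 targets of JNK and AP-1, 5 were higher and 0 lower, with a median of 0.64. *Mmp1*, the marker of PM3, and *Gadd45*, a leading gene named above, are among these 5, so the count is not separate from the marker. *Mmp2*, the other fly matrix metalloproteinase, was higher in 9 of 9 libraries (median log2 ratio 0.96), as was the actin-binding profilin *chic* (0.16). *puc*, the phosphatase that feeds back on JNK, did not meet the rule (7 of 9 libraries, median 0.17). Of 13 genes of the JNK pathway itself 1 was higher, *Jra*, in 8 of 9 libraries (0.35), and the median was 0.10.

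Of 5 clotting and imaginal disc growth factor genes 4 were higher, of 13 matrix genes 5, of 14 phagocytic and scavenger receptor genes 4, of 13 Toll genes 4 and of 14 Imd genes 4, and none of these lists had a lower member. These differences were small, with medians between 0.07 and 0.23. Cell division genes went the other way. Of 15, 10 were lower and 0 higher (median −0.44), including the mitotic kinases *polo* (−0.67, lower in 9 of 9 libraries) and *aurB* (−0.76, 9 of 9), while against PM5 alone *polo* and *aurB* were higher in 7 and 8 of 9 libraries. The others include PM2, which the paper calls the cycling state. Summed over the cell division list, PM2 had 3088, 1855 and 2360 CPM in unwounded replicates 1 to 3. PM3 had 1521, 1090 and 1141 CPM there and PM1 1550, 1072 and 1371 CPM, so PM3 was near PM1 in replicates 1 and 2. Heat shock, oxidative stress and glycolytic genes each had 3 lower and 0 higher members, of 13, 16 and 14. Of 11 AMP genes 2 were higher, *Mtk* and *Drs*, and the median of the list was 0.

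The next comparison asks what wounding changed within PM3. UMIs were summed over the PM3 cells of each library, and edgeR's quasi-likelihood test was run on 4372 genes in 3 unwounded and 4 wounded libraries, with the technology as a covariate. PM3 cells of wounded larvae had more *Drs*, *CG43175* and *alphaTub85E*. These were the 3 genes (0.0686%) past an adjusted p of 0.05, and 0 genes fell. At an unadjusted p of 0.05, 161 genes passed in either direction, and DESeq2 called 9 higher and 0 lower genes. The count of higher genes was 5 and 6 without unwounded replicates 1 and 2, and 7 and 9 without wounded replicates 2 and 3.

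*Drs* was at 6.45, 7.17 and 29.9 CPM in unwounded PM3 and at 2448, 1174, 1735 and 3630 CPM in wounded PM3, and the groups were far apart. Its log2 fold change was 6.96 (SE 0.52, edgeR adjusted p = 9.51e-05). *CG43175* was at 6.45, 17.9 and 46.7 CPM in unwounded and at 361, 259, 783 and 749 CPM in wounded PM3 (log2 fold change 4.15, SE 0.33, edgeR adjusted p = 0.000102), again without overlap. *alphaTub85E*, an alpha-tubulin isotype that is also on the lamellocyte marker list, was at 96.7, 61.0 and 107 CPM in unwounded and at 394, 197, 511 and 424 CPM in wounded PM3. Its log2 fold change was 1.99 (SE 0.30, edgeR adjusted p = 0.0429). This call was lost in 5 of 13 alternatives, where the adjusted p ranged up to 1. The fit of inDrops libraries alone has 1 unwounded library and called 0 genes, and its log2 fold changes were 6.45 for *Drs* and 3.98 for *CG43175*.

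**Figure D4:**
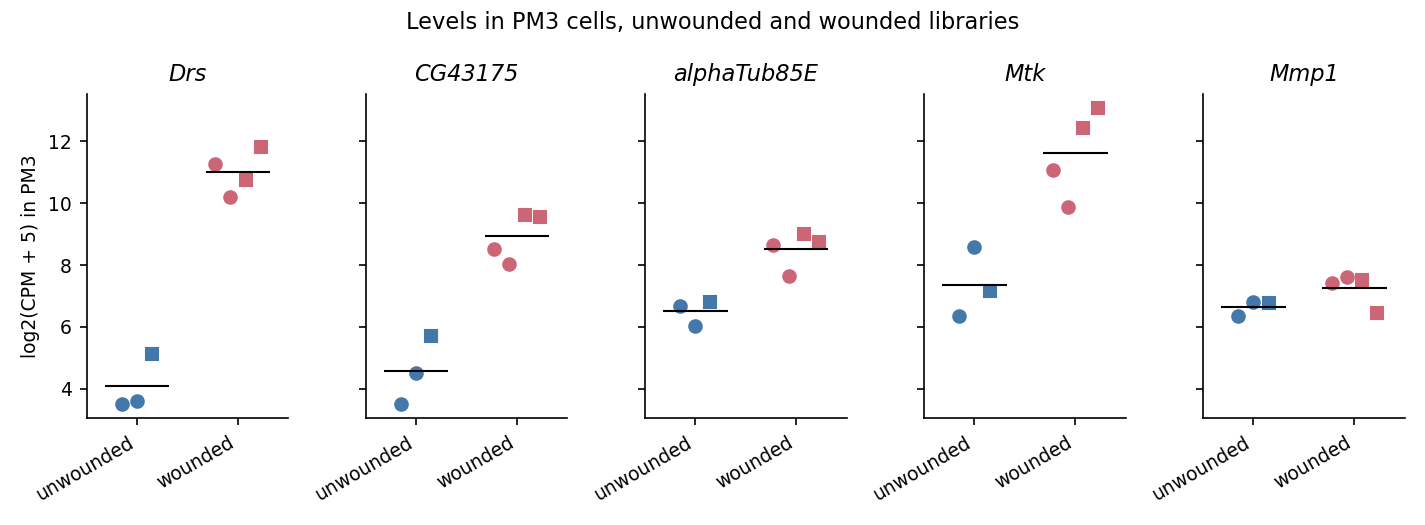
Level of 5 genes in PM3 cells, as log2(CPM + 5), in 3 unwounded and 4 wounded libraries (circle 10X Chromium, square inDrops), with group means as lines. *Drs*, *CG43175*, *alphaTub85E* and *Mtk* do not overlap between the groups, and *Mmp1* does.

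Other AMP genes had large fold changes after wounding that did not pass this test. *Mtk* had the values given above, which did not overlap between unwounded and wounded PM3 (log2 fold change 3.66, SE 0.74, edgeR adjusted p = 0.157). *CecC*, a cecropin with near-identical copies whose reads may be shared, was at 0, 10.8 and 31.8 CPM in unwounded and 180.3, 26.9, 354 and 704 CPM in wounded PM3 (log2 fold change 3.96, SE 0.73, edgeR adjusted p = 0.131), with overlap in wounded replicate 2. *Mmp1* itself had a mean of 96.6 ± 16.7 CPM (SD, n = 3) in unwounded and 155 ± 49.7 CPM (SD, n = 4) in wounded PM3. Its log2 fold change was 0.61 (SE 0.30) with an edgeR adjusted p of 1.00, and wounded replicate 4 lay among the unwounded libraries.

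A fit with the replicate number as a block raised the counts to 36 higher (0.823%) and 29 lower (0.663%) genes. Of these 21 and 1 did not overlap between the groups, a count not given over all 4372 genes. In this blocked fit, which rests on 3 pairs, *Mtk* (log2 fold change 3.65, SE 0.39), *CecC* (3.40, SE 0.37), *Tep1* (2.01, SE 0.28), *Tep2* (3.24, SE 0.78), *Mmp2* (1.28, SE 0.29), *GstE6* (0.91, SE 0.24) and *Idgf2* (0.75, SE 0.19) were called higher by edgeR. *Tep1* and *Tep2* encode complement-like thioester proteins and *GstE6* a glutathione S-transferase. *PH4alphaEFB*, a collagen prolyl hydroxylase, was called lower (−0.83, SE 0.21). *Mmp1* stayed short of the threshold under the block (0.80, SE 0.22, edgeR adjusted p = 0.0575).

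By list and without the block, 1 of 3 AMP genes tested was called, *Drs*, and 0 genes of the other lists reported here were called. Under the block 3 of 3 AMP genes were called higher, 1 of 7 targets of JNK and AP-1 and 2 of 13 phagocytic and scavenger receptor genes. Lamellocyte markers were higher in wounded libraries without overlap, in PM3 and in the other plasmatocytes (49.2 to 111 CPM unwounded, 121 to 382 CPM wounded). Crystal cell markers overlapped between the groups. Lamellocyte markers summed to 68.1 to 118 CPM in unwounded and 222 to 632 CPM in wounded PM3, of which *alphaTub85E* made 197 to 511 CPM, and none of the 7 markers was at 0 in every wounded library. Crystal cell markers summed to 147 to 251 CPM in unwounded and 228 to 1410 CPM in wounded PM3. In the other plasmatocytes they summed to 222 to 1058 CPM and 245 to 1263 CPM. In PM3 *PPO1* and *PPO2*, the prophenoloxidases of crystal cells, were called higher under the block (1.83, SE 0.24, and 1.91, SE 0.23). The part of such markers in the result was not tested, and no doublet caller was run.

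The other plasmatocytes also had far more *Drs* in wounded libraries. *Drs* was at 3.90, 9.38 and 10.2 CPM in other unwounded and at 1117, 678, 1042 and 1503 CPM in other wounded plasmatocytes. Whether PM3 changed otherwise than these was tested as the interaction of class and condition in 1 edgeR fit over 9 libraries and 8003 genes, in which each library is its own control. Here 1 gene (0.0125%) was higher and 0 were lower, 245 genes passed an unadjusted p of 0.05, and DESeq2 called 0. The differences of *Drs* (−0.13, SE 0.51), *Mtk* (0.16, SE 0.19), *CG43175* (0.43, SE 0.35), *alphaTub85E* (0.45, SE 0.24) and *Mmp1* (0.05, SE 0.28) each had an edgeR adjusted p of 1, and that of *Mmp1* took either sign over the alternatives (−0.19 to 0.21). The log2 ratios of *Mmp1* in PM3 over other plasmatocytes were 0.90 to 1.43 in unwounded and 0.71 to 1.94 in wounded libraries, and they overlapped.

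The gene called, *CG18180*, falls outside the rule for named genes and was chosen after its values were seen (difference 8.61, SE 1.37, edgeR adjusted p = 0.0196). It had 1 UMI in PM3 and 3602 UMIs in the other plasmatocytes of unwounded replicate 2, and at most 5 UMIs in PM3 and 17 in the others of any other library. The libraries overlapped between the groups, and without unwounded replicate 2 or without wounded replicate 1, 0 genes were called.

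In the wasp inf. 24 hr libraries PM3 stood further from the other plasmatocytes than in unwounded ones. It had more matrix, phagocytic receptor and clotting transcripts and more *Drs* and *Mtk*, and less small heat shock RNA. In the same fit, 141 genes (1.76%) had a higher ratio of PM3 to other plasmatocytes than in unwounded larvae and 33 (0.412%) a lower one. For 137 and 29 of them the library ratios did not overlap. No such count is given over all 8003 genes, so these counts add no support to the calls. A library's own level cancels in such a ratio, but technology, strain, age and isolation differ with the group all the same. The make-up of the other plasmatocytes differed too. PM6 and PM7 were 19.7% and 10.1% of plasmatocytes in wasp inf. 24 hr replicate 2 and 0.556% and 0.351% in replicate 3. In unwounded replicates 1 to 3 they were at most 0.441% and 6.17%. Beyond the alternative comparator given below, the part of this make-up in the result was not tested. Both classes were also set by the clustering of these same cells, and its part in the calls was not tested. The unwounded libraries are those of the wounding comparison.

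Of the lists, the matrix genes had the most called members. Of 13 tested, 8 were called higher and 0 lower, and over the 11 with at least 10 UMIs the median difference was 1.12, against −0.02 over 6616 genes. *Glt*, the basement membrane protein glutactin, was at 6170, 8687 and 7743 CPM in PM3 and 6099, 7132 and 7260 CPM in the other plasmatocytes of unwounded replicates 1 to 3. In the wasp libraries, replicates 2 and 3, it was at 1503 and 1277 CPM in PM3 and at 146 and 363 CPM in the others. The 2 classes were thus nearly level in unwounded larvae and well apart in both wasp libraries (difference 2.32, SE 0.27, edgeR adjusted p = 3.38e-06).

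The collagen IV chain *vkg* had the same form. It was at 1870, 2278 and 10267 CPM in PM3 and at 1706, 2059 and 9675 CPM in the others of the unwounded libraries, and at 792 and 449 CPM against 97.2 and 153 CPM in the wasp ones (difference 2.09, SE 0.26, edgeR adjusted p = 5.75e-06). The other members called were *Pxn*, a matrix peroxidase (1.84), *Tig*, an integrin ligand (1.73), the laminin chains *LanB2* (1.47), *LanA* (0.88) and *LanB1* (0.88), and *Ppn*, papilin (1.12). *Col4a1* and *SPARC* had no UMI in these Drop-seq libraries and were not read. Summed over the list, PM3 was first of 8 plasmatocyte clusters in wasp inf. 24 hr replicate 2 (6087 CPM) and first of 11 in replicate 3 (5001 CPM), while its rank was 3, 3 and 1 in the unwounded and 6 or 7 in the 4 wounded libraries. PM1 was second in these wasp libraries, at 3381 and 3427 CPM.

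**Figure D5:**
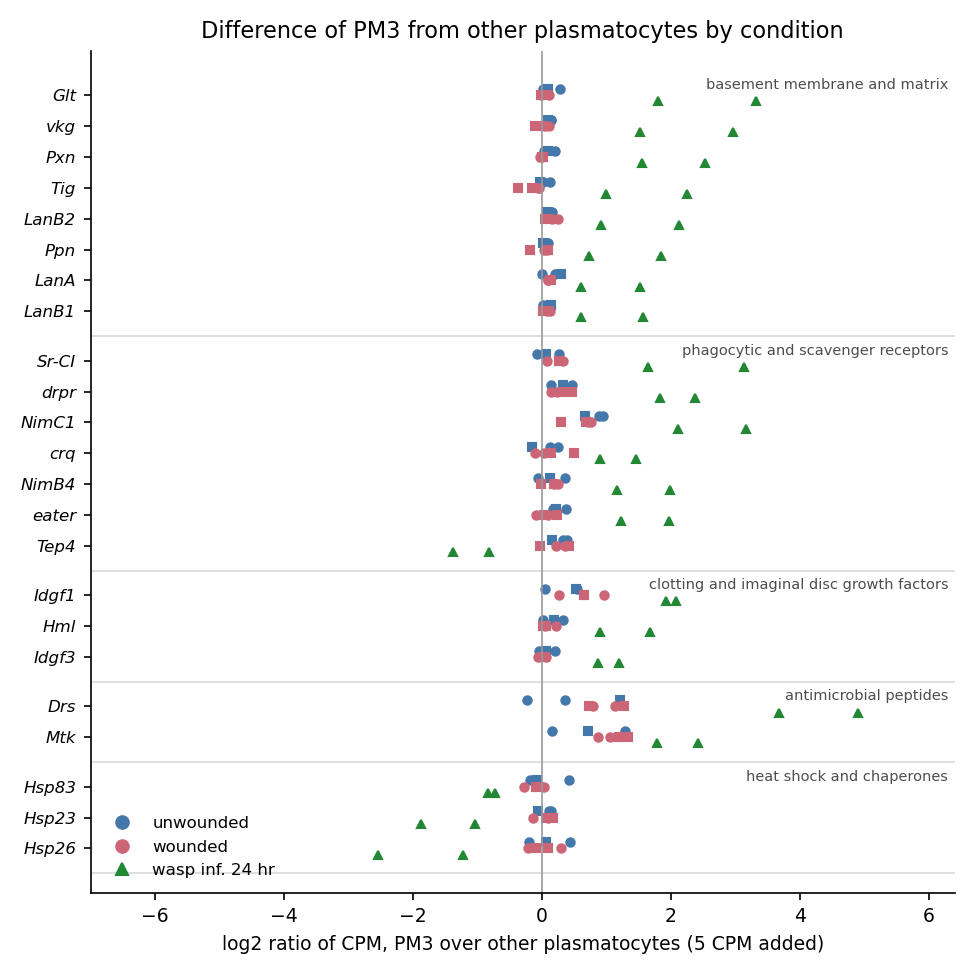
Log2 ratio of CPM in PM3 over other plasmatocytes (5 CPM added, horizontal axis) in each library for called members of 5 gene lists (circle 10X Chromium, square inDrops, triangle Drop-seq). The unwounded and wounded libraries lie near 0 for most genes, and both wasp inf. 24 hr libraries lie to one side.

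Of 15 phagocytic and scavenger receptor genes, 6 were called higher and 1 lower, with a median of 0.55 over 14 genes. Summed over the list, PM3 was first in wasp inf. 24 hr replicates 2 and 3 (4683 and 5954 CPM) and PM7 second (3753 and 5127 CPM). *Sr-CI*, a scavenger receptor for bacteria, was at 774, 2098 and 1767 CPM in PM3 and 815, 1750 and 1695 CPM in the others of the unwounded libraries. In the wasp libraries it was at 731 and 782 CPM in PM3 and 79.2 and 247 CPM in the others (difference 2.20, SE 0.28, edgeR adjusted p = 1.10e-05). In the wasp libraries PM3 was thus well above the others, and in unwounded ones the classes were nearly level. *drpr* (2.12) and *crq* (1.62), receptors for dying cells, *NimC1* (1.75), *NimB4* (1.31) and *eater* (1.27), a receptor for bacteria, were higher too. *Tep4*, a thioester protein, was lower (−1.62), at 606 and 439 CPM in PM3 and 1581 and 783 CPM in the others of the wasp libraries. Of 5 clotting and imaginal disc growth factor genes, *Idgf1* (1.38), *Hml* (0.96), the clotting factor hemolectin, and *Idgf3* (0.82) were called higher.

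*Drs* was at 380 and 246 CPM in PM3 and at 7.88 and 14.6 CPM in the other plasmatocytes of the wasp libraries. The log2 ratios of 4.90 and 3.68 were above those of all 7 libraries of the other conditions, and the difference from unwounded was 3.53 (SE 0.51, edgeR adjusted p = 5.39e-05). After thinning to 1000 UMIs, 13.8% and 14.1% of PM3 cells in wasp inf. 24 hr replicates 2 and 3 had a *Drs* UMI. Thinned shares in crystal cells were 20.8% and 1.33%, so crystal cells were the higher in replicate 2. In the other plasmatocytes the thinned shares were 0.757% and 0.697%. *Mtk* had a difference of 3.18 (SE 0.42, edgeR adjusted p = 1.47e-05), from 28.1 and 15.6 CPM in PM3 and 1.21 and 1.01 CPM in the others. An *Mtk* UMI was found in 4.60% and 5.13% of PM3 cells and 0.649% and 0.329% of the others. After thinning, 1.84% and 0% of PM3 cells had one. The ratio of *Mtk* thus rested on a small part of the PM3 cells, with the others near 0. *Drs* and *Mtk* were the AMP genes called of 11 tested, of which 4 had at least 10 UMIs (median difference 2.21). Of the Toll genes *cact*, the inhibitor of the NF-kB factors (1.16), and *Pli* (1.28) were higher, and so was *trio* (0.99). *alphaTub85E* was higher as well (1.36, SE 0.31, edgeR adjusted p = 0.0135), at 36.8 and 65.4 CPM in PM3 and 6.82 and 27.3 CPM in the others.

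*Mmp1* was not among the genes called. Its difference was −0.49 (SE 0.29, edgeR adjusted p = 0.548) and turned to 0.24 with PM4 and PM5 alone as the other plasmatocytes, and its library ratios in wasp inf. 24 hr replicates 2 and 3, 1.02 and 1.10, lay among those of unwounded ones. Of 10 targets of JNK and AP-1, 0 were called. Of the JNK pathway 1 was called lower, *egr*, the tumor necrosis factor of the fly, but on 2 UMIs in wasp PM3 (−3.59, SE 0.92). *et*, a negative regulator of JAK-STAT signaling, was lower (−1.30, SE 0.21, edgeR adjusted p = 0.000224), at 61.0 and 81.0 CPM in PM3 and 116 and 108 CPM in the others of the wasp libraries, while PM3 was the higher in the 3 unwounded ones.

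Among the genes with a lower ratio, *Ance*, an angiotensin-converting enzyme homolog, had the most UMIs. It was at 322, 348 and 168 CPM in PM3 and 300.4, 376 and 172 CPM in the others of the unwounded libraries, and at 547 and 661 CPM against 3491 and 1634 CPM in the wasp ones. PM3 was thus well below the others in both wasp libraries and level with them in unwounded ones (difference −2.21, SE 0.25, edgeR adjusted p = 3.21e-06). The small heat shock genes *Hsp26* (−3.19) and *Hsp23* (−2.15) and the chaperone *Hsp83* (−0.99) were lower, although *Hsp26* and *Hsp23* rested on 7 and 15 UMIs in wasp PM3. *CG42565* (−3.86), *CG9300* (−2.25), *ITP*, an ion transport peptide (−2.11), *Cbs*, an enzyme of cysteine synthesis (−2.04), and *CG11920* (−1.97) completed the 8 named genes.

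Beside *Drs*, the largest higher ratios were those of sparsely counted genes. *CG16984* (9.82), *CG9279* (4.59), *CG11906* (4.04), *CG14642* (3.97), *E(spl)m3-HLH*, a target of Notch (3.29), *CG7470* (3.28) and *orb2*, a regulator of translation (3.22), had between 0 and 19 UMIs over unwounded PM3 and between 9 and 57 over wasp PM3. For these genes the ratio rested on a few UMIs in unwounded larvae, in wasp inf. 24 hr larvae or in both. *CG7470* was sparse in the latter, with 17 UMIs in PM3 and 26 in the others. In the other unwounded plasmatocytes, replicate 2 held 39 of 41 UMIs of *CG16984* and 104 of 122 UMIs of *CG9279*.

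The counts depended on the wasp libraries. Without wasp inf. 24 hr replicate 2, which holds most wasp PM3 cells, 30 genes were higher and 6 lower, all of them among the 141 and 33, and 3 matrix, 3 phagocytic and scavenger receptor and 1 clotting gene were called. Without replicate 3 there were 230 and 60, without unwounded replicate 3 there were 96 and 15, and with PM4 and PM5 alone as the other plasmatocytes 218 and 37. The median depth of PM3 and other plasmatocytes was alike in these libraries, at 5892.5 and 5919 UMIs in replicate 2 and 3551.5 and 3526 UMIs in replicate 3. Lamellocyte markers summed to 96.1 and 318 CPM in PM3 and to 46.8 and 204 CPM in the others, fat body markers to 0 in PM3, and crystal cell markers to 22.1 and 9.35 CPM in PM3. The part of lamellocyte markers in the result was not tested.

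Within PM3, wasp inf. 24 hr differed from unwounded in many genes, but this contrast also holds technology, strain, age, isolation and annotation, which cannot be told apart. Of 3439 genes, 340 (9.89%) were higher and 415 (12.1%) lower by edgeR's quasi-likelihood test. Without wasp inf. 24 hr replicate 2 the counts were 84 and 38, and without replicate 3 146 and 77. The filter on low counts kept genes that were high in either group, so a gene near 0 in one group entered through the other. Lists are described by the members called.

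*Mmp1* was higher in PM3 of the wasp libraries, by a log2 fold change of 3.97 (SE 0.60, edgeR adjusted p = 0.000971), with a mean of 1570 ± 1387 CPM (SD, n = 2). The log2 fold change was 2.54 without wasp library 2 and 4.82 without wasp library 3, and the call held in both. Of 8 targets of JNK and AP-1 tested, 4 were called higher and 0 lower, *Mmp1*, *puc* (3.22), *Thor*, an inhibitor of translation (3.39), and the cytokine *upd3* (3.05). *puc* was at 83.8, 46.6 and 26.2 CPM in unwounded and at 443 and 470.5 CPM in wasp PM3. *kay* was at 77.4, 68.1 and 174 CPM in unwounded and at 1644 and 1739 CPM in wasp PM3, and *Jra* at 155, 111 and 82.3 CPM and at 952 and 916 CPM. Both were called higher (3.86 and 3.01), as 2 of 9 JNK pathway genes tested. In the other plasmatocytes of the wasp libraries *kay* was at 927 and 1183 CPM, below PM3, and *puc* at 506 and 416 CPM, on either side of PM3.

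Of 10 AMP genes tested, 4 had at least 10 UMIs over the plasmatocytes of each group. Of these *AttB* (2 UMIs in unwounded PM3), *CecC* and *Drs* were called higher and *Mtk* lower, and no count is given for the rest, which passed the filter through the wasp libraries. *CecA2*, *CecB* and *Dro*, which encodes Drosocin, had no UMI in unwounded PM3, and were at least 55.3-fold, 85.5-fold and 68.8-fold higher in the lower of the wasp libraries, against a floor of 3 UMIs over the unwounded group. The cecropin and attacin genes have near-identical copies, so that single members are uncertain. *Drs* was higher (4.07, SE 0.57, edgeR adjusted p = 0.000648) but *Mtk* was lower (−3.09, SE 0.66, edgeR adjusted p = 0.00709). The other genes named by the rule, also without a UMI in unwounded PM3, were *CG1648* (at least 59.3-fold), *CG33461* (56.3-fold), *tx* (42.3-fold), *CG13482* (31.2-fold) and *atilla*, the lamellocyte marker (10.2-fold). *atilla* was at 31.7 and 206 CPM in the wasp libraries 2 and 3, and its call was lost without the latter (edgeR adjusted p = 0.0648, range over the alternatives 3.13e-14 to 0.0648).

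All 9 matrix genes called were lower, of 11 tested, with a list median of −2.88. They included *Glt* (−2.49), *vkg* (−3.06) and *Ppn* (−3.26), which the ratio within wasp libraries placed higher in PM3 than in other plasmatocytes. Of 9 heat shock genes 6 were lower, among them *Hsp26* (−8.79), *Hsp23* (−7.40) and *Hsp68* (−7.18), and 1 was higher, *stv* (4.09, on 3 UMIs in unwounded PM3). Of 11 cell division genes 4 were lower, *stg* (−2.97), *RnrS* (−2.34), *CycB* (−1.80) and *RnrL* (−1.78). The oxidative stress list had 5 higher and 1 lower of 11, with *Keap1* (5.16, on 4 UMIs in unwounded PM3) and *Gclc* (3.28) the largest, and the Imd list 4 higher and 1 lower of 10.

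The lowest genes were those with no or almost no UMI in Drop-seq. The homeotic gene *Ubx* had 10746 to 17013 CPM in unwounded PM3 and 0 UMIs in both wasp libraries, at least 21484-fold lower. *CG17839*, *CG10859* and *Ir40a* were likewise at 0 (at least 227-fold, 199-fold and 149-fold lower). *Hsp70Bc*, 1 of several near-identical copies (−9.72), *lncRNA:alphagamma-element:CR32865* (−8.14) and *Gal* (−7.94) had 1 to 4 UMIs there. In the other plasmatocytes of the wasp libraries *Ubx* was at 0.303 and 0.724 CPM, so both classes had almost no UMI of it, and the part of the annotation and technology was not tested.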

How the data were processed

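Hemocytes of 4 unwounded, 4 wounded and 3 wasp inf. 24 hr libraries were analysed. The authors deposited whole UMI counts per gene and cell in a merged table (19458 cells, 10392 genes) after filtering cells, with each cell's cluster. They corrected batches with Harmony and clustered in Seurat, and their processing notes name Cell Ranger 3.1.0 and SAMtools. Per the study's methods, Drop-seq reads were mapped to another annotation than the rest, and some genes have no UMI in Drop-seq. The deposited percent of mitochondrial UMIs was used only as a check.

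Counts were summed per library and class for libraries with at least 10 PM3 cells and given as CPM. Ratios are log2 with 5 CPM added. Tests were edgeR 4.0.16 (R 4.3.3, TMM, filterByExpr, Benjamini-Hochberg, adjusted p under 0.05), with DESeq2 1.42.0 as an alternative, and exact permutation tests of shares (SciPy 1.17.1). Within PM3, genes compared with wasp inf. 24 hr needed a UMI in both Drop-seq and another technology. The fit of differences from other plasmatocytes had library and class as terms and no such filter, and list medians used members with at least 10 UMIs over all plasmatocytes of each group. Scripts were tested on simulated data. Intervals and floors (3 counts) cover counting error only.

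Same-numbered unwounded and wounded libraries deviated together from their group means (r = 0.73, 0.84 and 0.84 over 4296 genes). The numbers were taken as pairs only in the blocked fit and the sign-flip test. The main wounding fit had the technology alone as a covariate. Libraries of 1 technology with different numbers also correlated (r = 0.17, 0.35 and 0.80). Against the means of the 10X Chromium libraries alone, r was 0.73 for the same number and −0.73 for different numbers, which mirror each other by construction. The main wounding fit takes no account of this pairing. The libraries numbered 3 were multiplexed in 1 inDrops sample. The labels do not say which libraries came from separate larvae, so p-values measure the spread between these libraries.

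Named were *Mmp1*, the 20 leading and 10 lowest genes (at least 100 CPM, the same direction in all libraries but at most 1), the 8 called genes with the largest change each way and no overlap, and the called members of gene lists or otherwise those with the highest CPM. Results of 1 list are not reported here. Members and lists were chosen with earlier results of these data known. Positions come from Ensembl by symbol, for 57 of 60 genes.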

Additional observations from a re-analysis of the deposited data

Results flagged for a closer look

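A sample far from the rest of its group was looked for, by its gap relative to the group's range, in 22 groups of at least 4 samples, and 0 were found. The wasp inf. 24 hr group has fewer samples, so replicate 2 was not tested. Effects of condition that differed between PM3 and the other plasmatocytes by the edgeR interaction test were found for 17 named genes. For wasp inf. 24 hr against unwounded, the ratio of PM3 to other plasmatocytes was higher for *CG16984* (log2 difference 9.82), *CG9279* (4.59), *CG11906* (4.04), *CG14642* (3.97), *Drs* (3.53), *E(spl)m3-HLH* (3.29), *CG7470* (3.28) and *orb2* (3.22). It was lower for *CG42565* (−3.86), *Hsp26* (−3.19), *CG9300* (−2.25), *Ance* (−2.21), *Hsp23* (−2.15), *ITP* (−2.11), *Cbs* (−2.04) and *CG11920* (−1.97). *Drs*, *Ance* and *Hsp26* kept their call in 14 of 14 alternatives. For wounded against unwounded the gene was *CG18180* (8.61), on the UMIs of 1 library.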

How the results depend on the processing

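Of 429 alternatives for single genes, 381 kept the direction and the side of the threshold, 42 kept the direction but lost the call, and 6 changed sign. All 6 were the uncalled difference of *Mmp1*. After wounding it was −0.19 with PM4 and PM5 as the other plasmatocytes, −0.031 without PM1, and −0.18 to 0.21 when 1 library was left out, and for wasp inf. 24 hr it was 0.24 with PM4 and PM5. Leaving out 1 library at a time gave 1.09 to 5.37 percentage points for the share, 2 to 9 higher and 0 to 0 lower genes within PM3 for wounding, 0 to 3 and 0 to 0 for the difference from other plasmatocytes after wounding, 30 to 230 and 6 to 60 for the difference in wasp inf. 24 hr, and 84 to 482 and 38 to 538 within PM3 for wasp inf. 24 hr. Without the filter on low counts these gave 37 and 13 (wounding), 3 higher (difference after wounding), 52 lower (difference in wasp inf. 24 hr) and 586 and 665 (within PM3, wasp inf. 24 hr). DESeq2 gave 9 higher genes for wounding and 0 for the difference after wounding. With the replicate number as a block (pairing), wounding gave 36 and 29, and the share difference kept 3.77. The inDrops libraries alone, with 1 unwounded library, gave 0 higher genes. With PM4 and PM5 as the other plasmatocytes the differences gave 3 and 2 (wounding) and 218 higher (wasp inf. 24 hr), and without PM1 2 higher and 74 lower. Averaged per condition, 381 genes in place of 248 were higher in PM3. The causes were not tested. Depth limits low genes in unwounded replicate 1, with 52 PM3 cells.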
